A study of Mus musculus with 12 samples.

Results

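Kcnq1ot1 on chromosome 7 and Meg3, Rian and Mirg on chromosome 12 are imprinted long noncoding RNAs, each made from 1 parental allele. The rows described here lie fully within 7:142765000 to 142851000 (the Kcnq1ot1 window, 86 kb) or 12:109506000 to 109720000 (the Meg3 to Mirg window, 214 kb) on the GRCm39 assembly. They were chosen by position alone, because the deposited tables carry no gene names. The members are 19 of 74299 m6A intervals (8 in the Kcnq1ot1 window, 11 in the Meg3 to Mirg window) and 320 of 4929385 annotated repeat loci (109 and 211). No row crosses a window's edge. All 19 intervals had enough signal to be tested. Of the repeat loci, 67 of 109 and 140 of 211 passed the filter on low signal, and 16 and 19 had 0 reads in all libraries. The interval and repeat tables share reads where they overlap, which 5 and 6 of the repeat loci do, so they are not independent readings.

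The series profiled N6-methyladenosine (m6A), a methyl mark on adenosine in RNA, by antibody capture (MeRIP-seq) in RNA of the chromatin-bound fraction of E14TG2a cells, a mouse embryonic stem cell line kept with LIF and the inhibitors PD0325901 and CHIR99021. The 3 genotypes were wild type (WT), Alkbh5-/- (KO), which lacks the nuclear enzyme ALKBH5 that removes m6A, and Alkbh5-ΔcIDR, a deletion whose name refers to a disordered (unfolded) stretch of ALKBH5. Each had 2 libraries in the tables, read as the immunoprecipitated ones from the submitters' name for the tables. Columns headed KI were taken for ΔcIDR because no other genotype remained, and both KO columns are named KO6, so the KO libraries may come from 1 line. The labels do not say that replicates were separate cultures, so p-values measure only the spread between these samples, which may be technical. No column was read as input, so more m6A on a transcript, more of the transcript and more gene copies cannot be told apart in any value below. The libraries carry no strand or parental allele, so Kcnq1ot1 cannot be separated from its host gene Kcnq1, nor Meg3, Rian and Mirg from antisense genes such as Rtl1. Neither Alkbh5 itself nor stem cell markers could be checked without gene names.

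Depth ran from 13234793 to 15145206 reads per library in intervals and from 20922839 to 26267351 in repeats. The deposited signal is reads multiplied by 1 factor per library, set by 814 to 1870 reads of an m6A spike-in RNA. Reads of an unmodified spike-in RNA numbered 1729 to 5127 per library and exceeded those of the m6A spike-in in each. Whether the columns are enriched for m6A was not tested. On this scale the median of all tested intervals moved by −0.35 (log2) in KO and by 0.46 in ΔcIDR relative to WT, and the median of repeat loci by −0.26 and 0.31. Differences are therefore given on the deposited scale and, as "relative" values, after each library was centred on the median of its tested rows. A fitted log2 difference comes from limma on log2 of signal plus 0.5 for intervals or plus 10 for repeat loci, so it understates the change of weak rows. A call is an adjusted p (Benjamini and Hochberg over all tested rows) under 0.05.

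Kcnq1ot1 is transcribed from the paternal allele, antisense to Kcnq1 from a start inside that gene, and silences neighbouring genes on the same chromosome, most widely in the placenta. Meg3, Rian and Mirg are made from the maternal allele of the Dlk1-Dio3 domain. Rian and Mirg host box C/D small nucleolar RNAs and a large microRNA cluster, and loss of their expression is a familiar defect of cultured mouse stem cells. In the RefSeq annotation (GRCm38.p6) Kcnq1ot1 is a minus-strand lncRNA of 83437 bases inside Kcnq1. Meg3 (30734 bases), Rian (57772 bases) and Mirg (14478 bases) follow each other on the plus strand. Between the start of Meg3 and the end of Mirg the same annotation places 57 microRNA hairpins, of which 10 lie inside Mirg, and 19 small nucleolar RNA genes, of which 11 lie inside Rian. These coordinates are of another build than the tables, so no row was assigned to 1 of the 3 transcripts, and positions below are distances from the window edge on the side where transcription starts.

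The promoter windows of the 4 genes are shown because the start of Kcnq1ot1 is the reference point of the main pattern, and because KO lay below WT across the rows from Meg3 to Mirg. All 4 were matched by symbol in RefSeq (GRCm38.p6) and run from 250 bases before to 50 bases after the annotated start, at chr7:143296498-143296797 (minus strand), chr12:109540746-109541045, chr12:109603695-109603994 and chr12:109734731-109735030 (plus strand). Capitals mark CCAAT or its reverse complement ATTGG, the core of the site read by the factor NF-Y, and TGACGTCA, the palindromic cyclic AMP response element; these motifs did not overlap each other.
Kcnq1ot1: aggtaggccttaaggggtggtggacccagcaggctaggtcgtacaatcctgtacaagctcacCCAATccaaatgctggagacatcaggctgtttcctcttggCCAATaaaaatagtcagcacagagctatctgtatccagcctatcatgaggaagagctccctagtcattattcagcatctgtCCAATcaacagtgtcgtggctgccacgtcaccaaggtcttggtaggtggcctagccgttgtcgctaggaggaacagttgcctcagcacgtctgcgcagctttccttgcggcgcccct
Meg3: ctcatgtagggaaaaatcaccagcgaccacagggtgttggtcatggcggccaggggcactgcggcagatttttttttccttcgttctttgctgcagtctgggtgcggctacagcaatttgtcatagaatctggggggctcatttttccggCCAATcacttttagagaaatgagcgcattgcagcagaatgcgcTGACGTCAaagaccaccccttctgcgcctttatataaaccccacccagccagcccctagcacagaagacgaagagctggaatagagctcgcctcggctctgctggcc
Rian: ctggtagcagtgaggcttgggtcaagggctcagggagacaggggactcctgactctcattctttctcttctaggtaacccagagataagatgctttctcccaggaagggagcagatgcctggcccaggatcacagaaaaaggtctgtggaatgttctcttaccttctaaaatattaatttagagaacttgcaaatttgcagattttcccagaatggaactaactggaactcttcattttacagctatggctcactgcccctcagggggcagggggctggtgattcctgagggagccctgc
Mirg: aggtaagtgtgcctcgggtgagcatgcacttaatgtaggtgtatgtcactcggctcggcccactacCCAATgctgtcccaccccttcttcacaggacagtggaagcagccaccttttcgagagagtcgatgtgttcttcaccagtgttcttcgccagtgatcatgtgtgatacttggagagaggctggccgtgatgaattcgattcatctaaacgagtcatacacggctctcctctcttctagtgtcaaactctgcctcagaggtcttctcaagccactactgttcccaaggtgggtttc
Kcnq1ot1 had 3 matches to CCAAT or ATTGG, a number reached by 3.37% of the 32851 promoter windows in the table, whereas 37.4% held at least 1. The Meg3 window shown is 1 of 2 listed for that gene, and the other is not described here. The window shown held 1 CCAAT and 1 TGACGTCA, the latter found in 1.79% of windows. Mirg held 1 CCAAT, and Rian held neither motif and 0 CG dinucleotides, against 9 in Kcnq1ot1, 13 in Meg3, 10 in Mirg and a median of 7 over all windows. These matches describe the letters of the windows only.

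Without Alkbh5, the Kcnq1ot1 window took up more of the reads and the Meg3 to Mirg window less. In intervals, the Kcnq1ot1 window drew 189 and 187 RPM (window reads per 1000000 reads of the table) in the WT libraries, against 277 and 298 for KO and 193 and 173 for ΔcIDR. Both KO libraries lay above the other 4. The Meg3 to Mirg window drew 1292 and 1371 with WT, 939 and 1009 with KO and 1001 and 961 with ΔcIDR. Here the KO and ΔcIDR libraries overlapped, and all 4 lay below WT. In repeat loci KO was again highest for Kcnq1ot1, at 440 ± 15.2 RPM in WT, 675 ± 2.42 in KO and 470 ± 9.39 in ΔcIDR (SD, n = 2 each), and ΔcIDR lay above WT, which it overlapped in intervals. Over the Meg3 to Mirg window they gave 1274 ± 21.7, 881 ± 27.1 and 1025 ± 32.6, with ΔcIDR between the other genotypes.

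**Figure D1:**
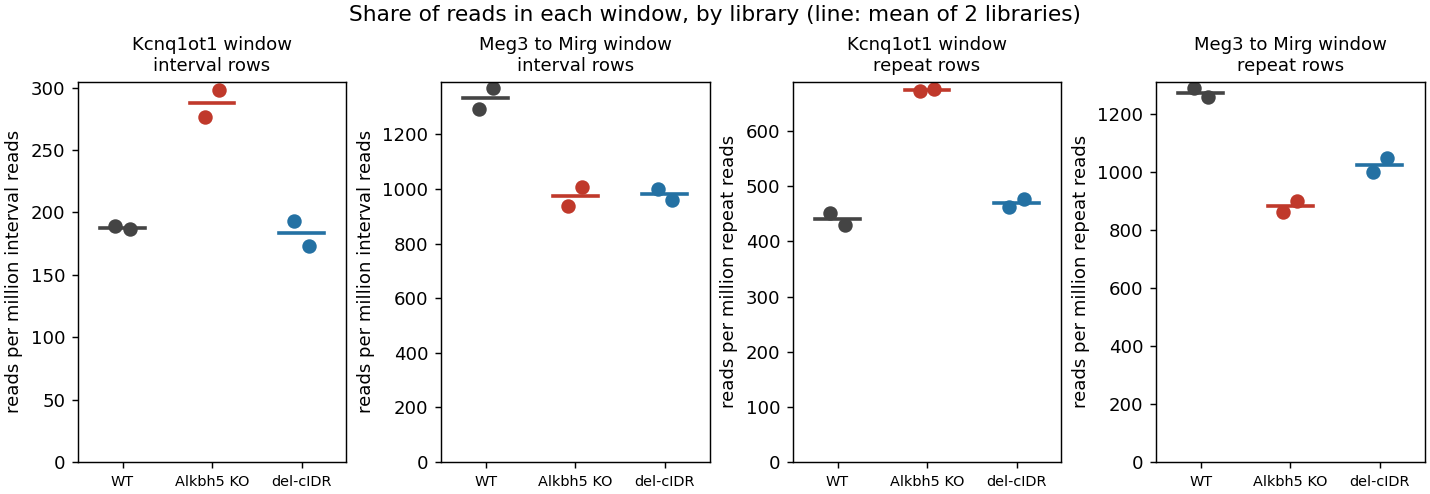
Reads in each window in RPM of the table's reads, by library (points) with the mean of 2 libraries (lines), for intervals (left pair) and repeat loci (right pair). KO is above WT in both Kcnq1ot1 panels and below WT in both Meg3 to Mirg panels, with no overlap between libraries.

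The ratio of the windows within a library does not depend on any scaling. In intervals, reads in the Kcnq1ot1 window were 0.146 and 0.136 of those in the Meg3 to Mirg window in WT, against 0.294 and 0.296 for KO and 0.193 and 0.180 for ΔcIDR. The 3 genotypes did not overlap. KO stood 2.09-fold above WT (1.07 ± 0.05, SE, log2) and ΔcIDR 1.32-fold above WT (0.40 ± 0.07). In repeat loci the ratio was 0.349 and 0.341 in WT, 0.781 and 0.752 with KO and 0.462 and 0.454 with ΔcIDR. KO was 2.22-fold WT (1.15 ± 0.03) and ΔcIDR 1.33-fold WT (0.41 ± 0.02), and ΔcIDR was 0.598-fold KO (−0.74 ± 0.03). Sums and ratios carry no p-value, since 2 libraries against 2 cannot go below 0.333 in a two-sided exact permutation test.

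**Figure D2:**
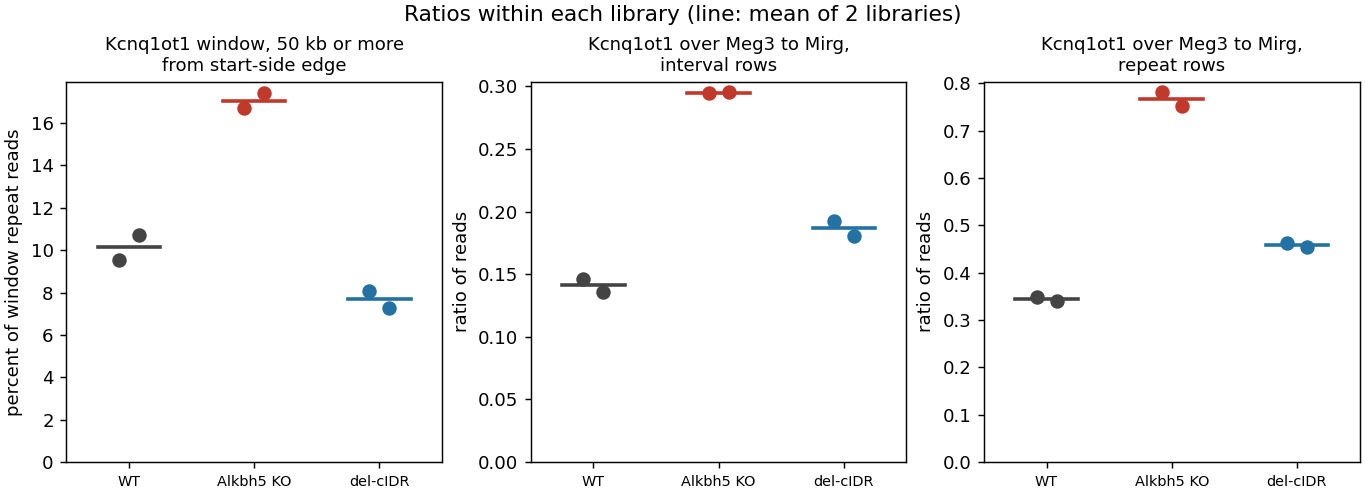
Left, percent of the Kcnq1ot1 window's repeat reads that lie 50 kb or more from its start-side edge. Middle and right, reads in the Kcnq1ot1 window over reads in the Meg3 to Mirg window, for intervals and repeat loci. Points are libraries, lines means of 2. KO is highest in all 3 panels, and the 3 genotypes do not overlap in any.

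Within the Kcnq1ot1 window the difference between KO and WT grew with distance from the start. Its 8 intervals lie 1.85 to 67.9 kb from the edge. The log2 difference in KO exceeded the median of all tested intervals at 8 of 8 on either scale, beside 18879 of 37759 over all intervals. The median relative log2 difference in the window was 0.71. On the deposited scale 1 of 8 intervals rose in KO and 0 fell, beside 0.985% of all tested intervals that rose and 10.0% that fell. After centring 5 of 8 rose, against 4.68% of all intervals, and 0 fell, against 7.28%. The far interval described next is the single call on the deposited scale and 1 of the 5 after centring. That interval was tested only because KO was high there, so it gives no support to any of these counts. The deposited call was lost without KO replicate 2. Of the 5 relative calls, 1 was left without WT replicate 2 or KO replicate 1 and 0 without KO replicate 2.

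The interval farthest from the start showed the largest difference. It lies at 7:142782956 to 142783229 wholly within a LINE-1 element (a retrotransposon family of which the mouse genome holds many copies), 67.9 kb from the edge. It had 1 and 4 reads in WT, against 46 and 60 in KO and 4 and 0 in ΔcIDR. In signal this was 0.116 and 0.493, 4.55 and 4.38, and 0.670 and 0. Only the KO libraries held more than a few reads. Its mean signal of 1.70 passed the minimum of 1 only through KO (4.46, against 0.305 in WT and 0.335 in ΔcIDR), so its differences from KO are given as values without a p. KO stood at 2.67 ± 0.55 (SE, n = 2 per group) from WT on the log2 scale and at 2.98 ± 0.51 relative. ΔcIDR stood at −2.70 from KO and at −0.03 ± 0.55 from WT.

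Intervals in the middle of the window had intermediate differences. The 1108-base interval at 7:142811899, 38.5 kb from the edge and 71.3% LINE-1, read 70.7 and 71.2 in WT, 112 and 71.7 with KO and 83.3 and 86.3 with ΔcIDR on the deposited scale. KO replicate 1 stood alone here until the libraries were centred, when KO rose by 0.65 ± 0.16 (adjusted p = 0.0180). The interval at 7:142794503, 56.3 kb out, read 9.31 and 11 in WT, against 17.8 and 13.1 in KO and 10.4 and 9.64 in ΔcIDR, and its relative log2 difference in KO was 0.88 ± 0.22 (adjusted p = 0.0182). KO did not overlap WT on either scale, whereas WT and ΔcIDR overlapped as deposited. The intervals at 7:142799643 and 7:142795804 rose by 0.77 and 0.79 relative (adjusted p = 0.0422 and 0.0482). The interval at 7:142802003 missed the threshold at 0.65 ± 0.21 (adjusted p = 0.0516), as did that at 7:142828731, 22.2 kb out, at 0.56 ± 0.21 (adjusted p = 0.0992).

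The interval nearest the start had the smallest relative difference of KO from WT. It lies at 7:142849009 to 142849296, 1.85 kb from the edge and outside any repeat, holds 45.6% of the interval signal of the window and is the strongest of the 8 at 578 units of signal per kb. Its signal was 119 and 145 in WT, 137 and 114 with KO and 270 and 213 with ΔcIDR. As deposited, WT and KO overlapped, and both ΔcIDR libraries lay above them. After centring both KO libraries lay above WT, at a relative difference of 0.24 ± 0.15 (adjusted p = 0.327). ΔcIDR stood at 0.87 ± 0.31 from WT (adjusted p = 0.108) and at 0.46 ± 0.15 relative (adjusted p = 0.217), so this missed the threshold on both scales. Against KO it rose by 0.94 ± 0.31 (adjusted p = 0.00799), a call that was lost after centring (0.22 ± 0.15, adjusted p = 0.306).

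**Figure D3:**
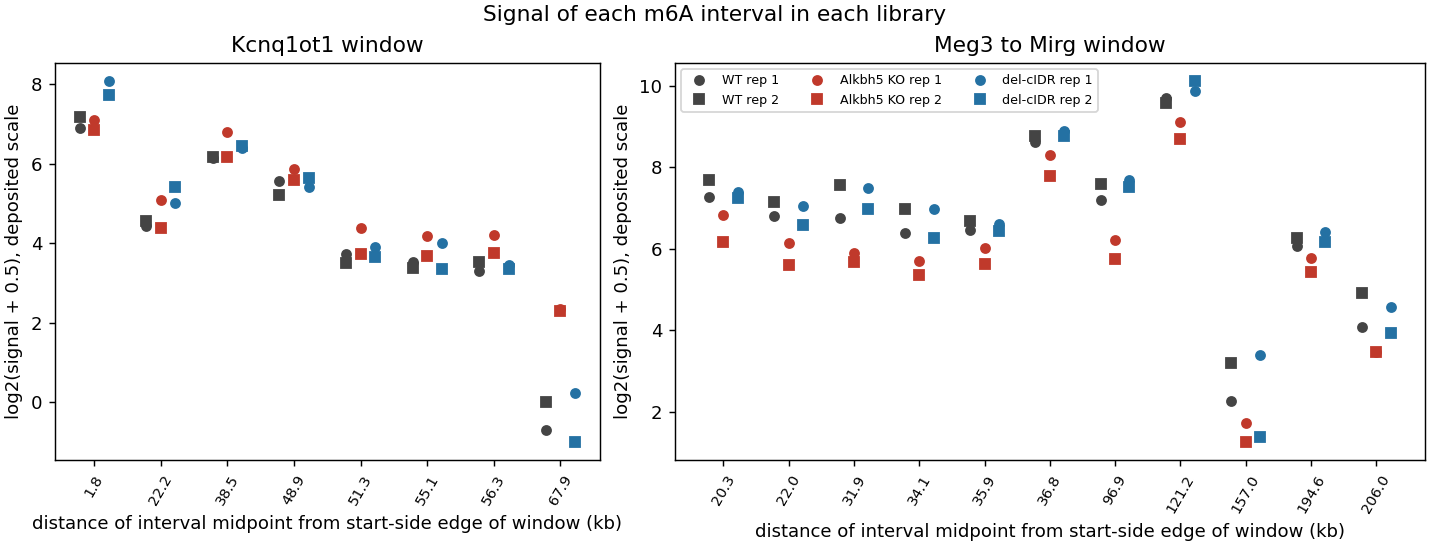
Deposited signal, as log2 of signal plus 0.5, of each of the 19 intervals in each library, ordered by distance of the midpoint from the start-side edge of its window (kb). In the Kcnq1ot1 window the KO points part from WT most at 67.9 kb, and in the Meg3 to Mirg window the KO points lie below the WT points at all 11 intervals. The share of all intervals that part likewise was not counted.

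Repeat loci showed the same slope. Their summed signal in WT stayed between 2523 and 6002 per 10-kb bin over the first 50 kb, then dropped to 1836 and 1988 at 50 to 60 kb, 292 and 380 at 60 to 70 kb, and 37.1 and 83.4 at 70 to 80 kb. The relative log2 difference of KO from WT was 0.36 ± 0.09 in the first bin, 0.34 ± 0.09 in the second and 0.29 ± 0.04 in the third. It then stood at 0.55 ± 0.11, 0.68 ± 0.20 and 0.99 ± 0.05, and reached 2.25 ± 0.13 at 60 to 70 kb and 2.59 ± 0.54 at 70 to 80 kb (SE, 2 libraries per group). KO was above WT in each of these 8 bins after centring. How many 10-kb bins elsewhere part likewise was not counted. As deposited, KO and WT libraries overlapped in the first 3 bins, with differences of 0.11, 0.09 and 0.04. The last bin held 3 to 15 reads per library and its difference of 0.12 ± 0.69 is smaller than the SE. ΔcIDR ran the other way, from 0.39 ± 0.09 in the first bin through 0.01 ± 0.22 at 40 to 50 kb to −0.35 ± 0.35 and −0.54 ± 0.54 at 60 to 80 kb. In the first 3 bins ΔcIDR minus KO was 0.03 ± 0.08, 0.06 ± 0.08 and −0.05 ± 0.04.

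**Figure D4:**
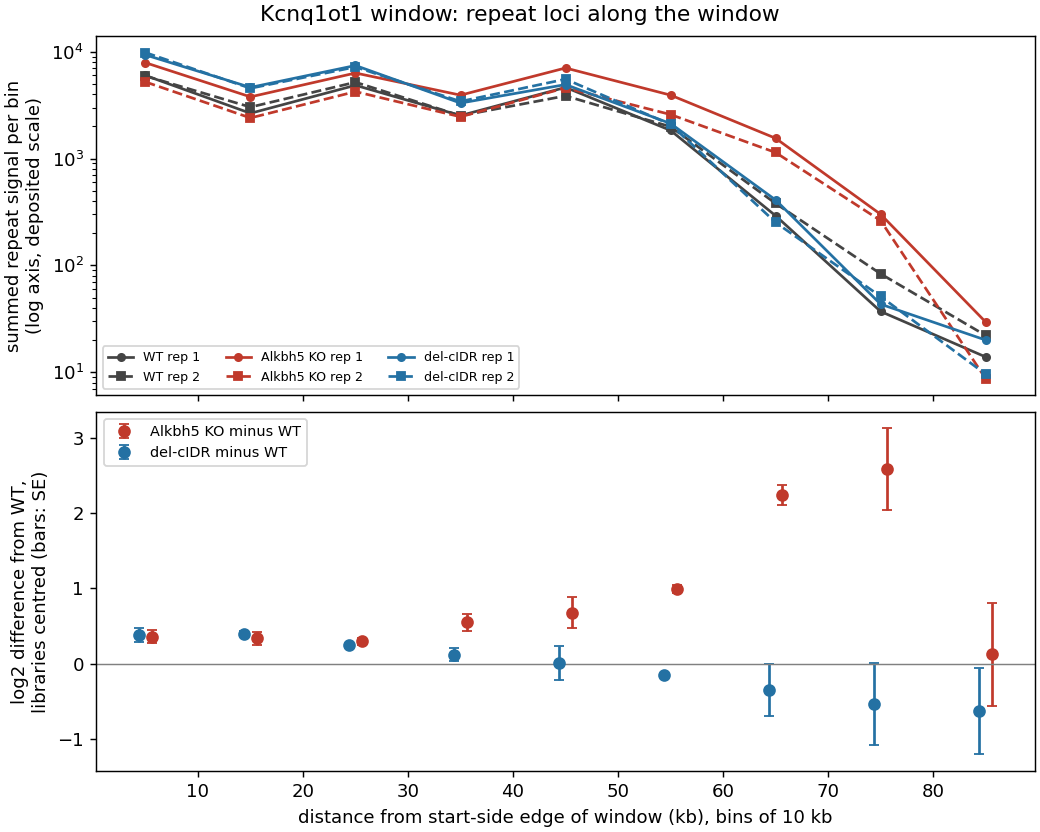
Repeat loci along the Kcnq1ot1 window in bins of 10 kb from the edge where transcription starts. Top, summed deposited signal per library on a log axis; bottom, relative log2 difference from WT with SE. KO is above WT from the first bin (0.36) and is 2.25 above it at 60 to 70 kb, while ΔcIDR runs from 0.39 to below 0.

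Put as a share within each library, 9.53% and 10.7% of the window's repeat reads lay 50 kb or more from the start side in WT, against 16.7% and 17.4% for KO and 8.06% and 7.28% for ΔcIDR. The genotypes did not overlap. The ratio of far to near reads in KO was 1.83-fold that in WT (0.87 ± 0.10, log2) and in ΔcIDR 0.737-fold (−0.44 ± 0.12). From 60 kb on, the share was 1.5% and 2.11% in WT, 5.40% and 6.16% with KO and 1.47% and 0.950% with ΔcIDR. The 50-kb bound was set after the bins had been seen. Most far reads fall in LINE-1, whose near-identical copies elsewhere can share reads, so the 2 kinds of locus were taken apart. Beyond 60 kb, the 26 LINE-1 loci had 141 and 189 reads in WT, against 897 and 916 for KO and 132 and 98 for ΔcIDR. The 19 loci of other families there had 7 and 9, 59 and 57, and 10 and 0. From 50 kb on, the relative difference of KO from WT was 1.29 ± 0.02 over LINE-1 and 1.39 ± 0.21 over other families. Over the first 50 kb it was 0.49 ± 0.14 and 0.35 ± 0.05.

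Among the 67 tested repeat loci of the window, 8 rose and 0 fell in KO on the deposited scale, beside 0.176% and 1.91% of all tested loci. After centring 19 rose and 0 fell, beside 1.31% and 2.13%, and 64 of 67 lay above the median of all loci. A locus at the far end passes the filter mainly through its KO reads, so these counts describe the tested loci only. The 8 calls became 1 without WT replicate 1 and 3 without WT replicate 2 or KO replicate 1, and 4 without either ΔcIDR library. The 19 relative calls became 9 without WT replicate 2 and 4 without either KO library. The LINE-1 locus at 7:142781006 to 142783559, which contains the far interval, read 41.7 and 44.2 in WT, 307 and 273 with KO and 53.3 and 12.8 with ΔcIDR (KO against WT 2.5 ± 0.40, adjusted p = 1.11e-06). The 6387-base LINE-1 at 7:142773373 to 142779759, outside any interval, read 27.8 and 66.3, 242 and 215, and 30.0 and 48.0 (2.15 ± 0.40, adjusted p = 7.70e-05). KO was the only group raised at both. A LINE-1 at 7:142786398 read 2.32 and 17.2, 134 and 76.9, and 0 and 6.39 (2.61 ± 0.51); it passed the minimum of 20 only through KO, so no p is given. By contrast the strongest locus, a LINE-1 at 7:142821145 and 29.6 kb out, read 2489 and 2459 in WT, against 3192 and 2122 in KO and 3721 and 3878 in ΔcIDR, and was called in neither (KO adjusted p = 0.950, ΔcIDR adjusted p = 0.453), although both ΔcIDR libraries lay above WT.

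ΔcIDR against WT called 0 of 8 intervals with limma, as deposited and after centring. Of all intervals 1.04% were called higher and 0.0874% lower on the deposited scale, and 0.167% and 0.138% after centring. An unadjusted p under 0.05 was reached by 2 of 8 as deposited and 1 of 8 after centring, beside 9744 and 5352 of all 37759. edgeR and DESeq2 on the recovered reads called 0 as well. As deposited, leaving out a KO library raised the count of limma calls here and over all intervals. Limma called 0 of 67 repeat loci on either scale, beside 0.0694% higher and 0.0173% lower of all loci, or 0.0886% and 0.0717% after centring. An unadjusted p under 0.05 was reached by 16 as deposited and 17 after centring, beside 46652 and 42990 of all 433487 loci. As deposited, the count of calls rose here and over all loci without a KO library. After centring, the count of lower calls rose here and over all loci without ΔcIDR replicate 1. Summed over the window, ΔcIDR intervals stood at 0.57 ± 0.09 from WT on the deposited scale and 0.17 ± 0.05 relative, and at −0.09 when scaled by ERCC spike-in reads, so the direction depends on the scale. Against KO, ΔcIDR was higher at 1 and lower at 1 of 8 intervals on the deposited scale, beside 47.3% and 1.57% of all intervals. After centring ΔcIDR was lower at 6 of 8 and higher at 0, beside 9.92% and 17.6%. The far interval, tested only because KO was high there, is the 1 lower as deposited and is among the 6. The 2 calls became 1 without either ΔcIDR library. Of the repeat loci, 3 were higher and 9 lower (18.7% and 0.726% of all loci), and after centring 27 were lower and 0 higher (4.84% and 6.52%). Loci at the far end passed the filter mainly through their KO reads, so these repeat counts describe the tested loci only. The 12 became more without KO replicate 1 and fewer without a ΔcIDR library, and the 27 became fewer without a KO library. The counts over all loci moved the same way each time. Both comparisons with KO share the KO libraries.

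In the Meg3 to Mirg window, KO lay below WT throughout. The log2 difference in KO exceeded the median of all tested intervals at 0 of 11, on the deposited scale and after centring. Over all intervals 18879 of 37759 exceed it by construction. On the deposited scale 7 of 11 fell and 0 rose, beside 10.0% and 0.985% of all tested intervals. After centring 5 of 11 fell and 0 rose, beside 7.28% and 4.68%. The median log2 difference was −1.03, or −0.71 after centring. The 7 calls depend on single libraries. They were lost without WT replicate 2 and became fewer without WT replicate 1, KO replicate 2 or either ΔcIDR library. They became more without the other KO library. The count over all intervals moved the same way each time. The 5 relative calls became 3 without WT replicate 2, 1 and 2 without KO replicate 1 or 2. Summed over the intervals, KO stood at −0.86 ± 0.24 from WT, 0.550-fold, and at −0.55 ± 0.01 relative, 0.684-fold.

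The first 6 intervals lie 20.3 to 36.8 kb from the edge and none overlaps a repeat. The first, at 12:109526205 to 109526425, read 154 and 207 in WT, 112 and 71.6 with KO and 167 and 150 with ΔcIDR (KO against WT −0.99 ± 0.31, adjusted p = 0.0211; relative −0.67, adjusted p = 0.0111). The interval at 12:109537711 read 108 and 187, 58.5 and 50.04, and 178 and 126, and fell in KO by 1.38 ± 0.31 on the log2 scale (adjusted p = 4.94e-04) and by 1.07 ± 0.20 relative (adjusted p = 0.00342). At both of these KO was the low group. Those at 12:109527786 and 12:109539646 fell by 1.12 and 1.16 on the log2 scale (adjusted p = 0.00800 and 0.00596). The 1141-base interval at 12:109542230, the strongest of the 6, read 391 and 436 in WT, against 316 and 220 in KO and 469 and 432 in ΔcIDR, and missed the threshold (−0.65 ± 0.31, adjusted p = 0.165), as did its neighbour at 12:109541781 (−0.75, adjusted p = 0.106).

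Farther along, the interval at 12:109602703 to 109603156, 96.9 kb from the edge and 48.0% covered by a satellite repeat, changed most. It read 145 and 192 in WT, 73.0 and 52.7 with KO and 206 and 182 with ΔcIDR. KO fell by 1.42 ± 0.31 on the log2 scale (adjusted p = 3.13e-04) and by 1.10 ± 0.15 relative (adjusted p = 3.66e-04), and ΔcIDR rose above KO by 1.64 ± 0.31 (adjusted p = 2.93e-06) and by 0.92 ± 0.15 relative (adjusted p = 5.03e-04). WT and ΔcIDR overlapped. The strongest interval of both windows, at 12:109626993 to 109627500, 121 kb out and 73.8% LINE-1, read 825 and 760 in WT, against 551 and 415 in KO and 939 and 1104 in ΔcIDR. It reached 1508 units of signal per kb, and its difference in KO missed the threshold on both scales (−0.73 ± 0.31, adjusted p = 0.111; relative −0.41 ± 0.17, adjusted p = 0.122). Near the far edge, 12:109662938 and 12:109711882 fell by 1.24 and 1.03 on the log2 scale (adjusted p = 0.0268 and 0.0322), and both were lost after centring (adjusted p = 0.230 and 0.0961). The interval at 12:109700337 read 66.3 and 76.1 in WT, 53.7 and 42.6 with KO and 85.0 and 71.3 with ΔcIDR (−0.57, adjusted p = 0.250).

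**Figure D5:**
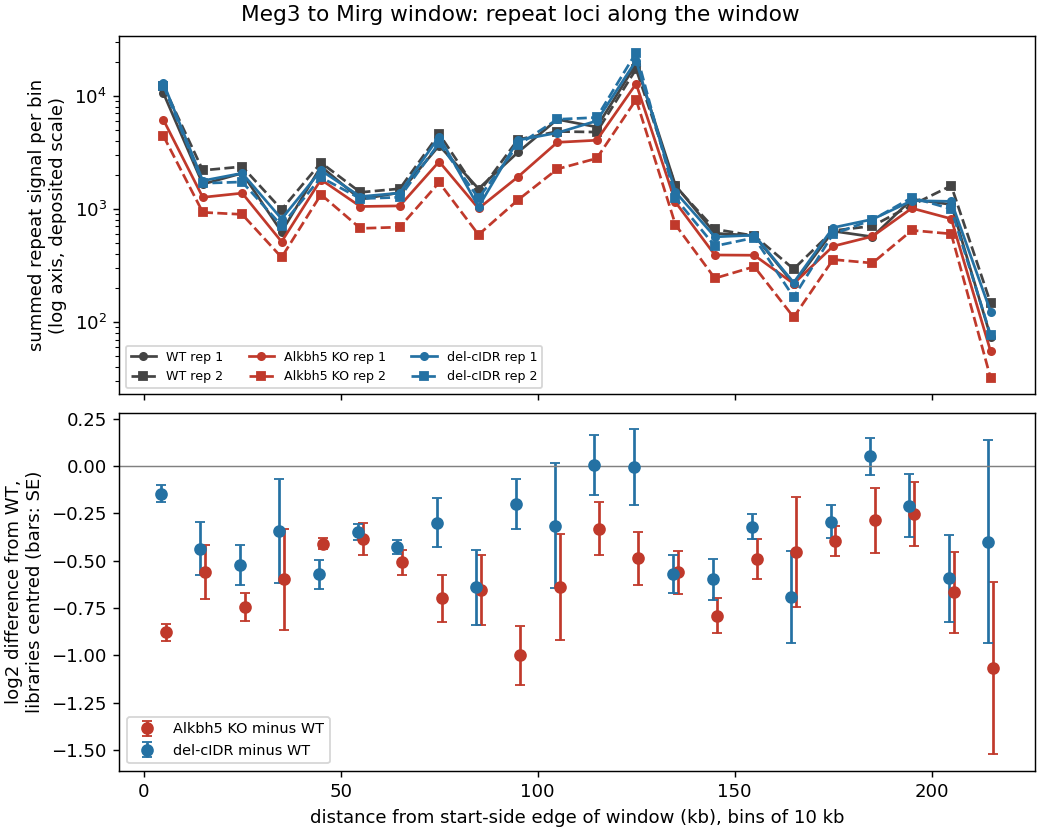
Repeat loci along the Meg3 to Mirg window in bins of 10 kb from the edge on the Meg3 side. Top, summed deposited signal per library on a log axis; bottom, relative log2 difference from WT with SE. After centring KO lies below WT in all 22 bins, between −0.25 and −1.07. How many 10-kb bins elsewhere part likewise was not counted.

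Repeat loci showed the same fall over the whole window. The relative difference of KO from WT lay between −0.25 ± 0.17 (190 to 200 kb) and −1.07 ± 0.46 (beyond 210 kb, 22 to 60 reads per library). After centring, KO libraries were below WT in all 22 bins. How many 10-kb bins elsewhere part likewise was not counted. The first bin stood at −0.88 ± 0.05 and the bin at 90 to 100 kb at −0.999 ± 0.15. Of 140 tested loci, 16 fell and 0 rose on the deposited scale, beside 1.91% and 0.176% of all loci, and 28 fell and 0 rose after centring, beside 2.13% and 1.31%. The log2 difference in KO exceeded the median of all tested loci at 8 of 140 on either scale, beside 216743 of 433487 over all loci. The 16 calls were lost without either WT library and became fewer without either ΔcIDR library or KO replicate 2. They became more without the other KO library. The count over all loci moved the same way each time. The 28 relative calls became 10 without WT replicate 2, 5 and 4 without KO replicate 1 or 2.

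Single loci in this window followed the sum. A simple repeat at 12:109506907, 0.924 kb from the edge, read 3015 and 3175 in WT, against 1541 and 1219 in KO and 3634 and 3692 in ΔcIDR (KO against WT −1.17 ± 0.31, adjusted p = 0.0147; relative −0.92, adjusted p = 5.79e-05). A low-complexity stretch at 12:109511700 read 1315 and 1833, 685 and 453, and 1920 and 1330 (−1.46 ± 0.32, adjusted p = 0.00113). Both sit within 6 kb of the edge on the Meg3 side. The LINE-1 at 12:109627126, which lies under the strongest interval, read 16483 and 15190, 10958 and 8268, and 18771 and 22048 and passed the threshold only after centring (−0.48 ± 0.11, adjusted p = 0.0114). LINE-1 gave 29.9% of this window's repeat signal (18 loci) and simple repeats 25.5% (113 loci), whereas LINE-1 gave 62.1% in the Kcnq1ot1 window (53 loci). The relative median in KO was −0.73 over 14 tested LINE-1 loci here and 0.70 over 34 in the Kcnq1ot1 window. Far-end LINE-1 loci of the Kcnq1ot1 window passed the filter mainly through KO reads, so its median describes the tested loci only. Summed without a filter over the 18 LINE-1 loci of its first 50 kb, KO stood at 0.49 ± 0.14 relative to WT.

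ΔcIDR against WT called 0 of 11 intervals in the Meg3 to Mirg window on either scale with limma. An unadjusted p under 0.05 was reached by 0 as deposited and 5 after centring, beside 9744 and 5352 of all 37759 intervals. DESeq2 called 2 lower and edgeR with TMM factors 0. After centring, 11 of 11 intervals lay below the median of all intervals (median difference −0.45). The summed intervals of ΔcIDR stood at 0.17 ± 0.10 from WT on the deposited scale and at −0.24 ± 0.05 relative, so here too the direction depends on the scale. Of the repeat loci 0 were called as deposited (6 of 140 with unadjusted p under 0.05, beside 46652 of all 433487). After centring 2 of 140 fell, beside 0.0717% of all loci; the count was 0 without any 1 WT or KO library, 5 without ΔcIDR replicate 1 and 1 without ΔcIDR replicate 2. The 2 loci were a SINE of the Alu class at 12:109551523 (760 and 932 in WT, 610 and 540 in ΔcIDR; relative −0.84, adjusted p = 0.0261) and an ERVL element at 12:109588237 (333 and 270 against 117 and 205; −1.21, adjusted p = 0.0399). Against KO, 8 of 11 intervals were higher in ΔcIDR and 0 lower on the deposited scale (1 without ΔcIDR replicate 1, 4 without ΔcIDR replicate 2, 5 without either WT library), beside 47.3% of all intervals that were higher. After centring 2 of 11 were higher, beside 17.6%, with 1 without either KO library and 4 without ΔcIDR replicate 2. Of 140 loci 36 were higher (18.7% of all), and 12 higher and 1 lower after centring, beside 6.52% and 4.84% of all loci (8 higher without either KO library). The 36 became more without KO replicate 1 and fewer without any other library, fewest without ΔcIDR replicate 1. The count over all loci moved the same way each time.

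Outside the windows, the interval median of KO on the deposited scale was −0.38 on chromosome 7 and −0.40 on chromosome 12, and that of ΔcIDR was 0.51 and 0.48. Centring brings such medians near 0 by construction, and they were then −0.07 and −0.09 in KO and 0.11 and 0.08 in ΔcIDR. Equal lengths on both sides of the Kcnq1ot1 window held 0 intervals, and their repeat reads came to 98 to 205 per library below it and 12 to 69 above it, against 72749 inside over all libraries. Next to the Meg3 to Mirg window the lower side held 2 intervals and 120 to 205 repeat reads per library. On the upper side, past Mirg, 438 repeat loci held 716 and 786 reads in WT, 255 and 207 with KO and 723 and 681 with ΔcIDR. KO stood at −1.95 ± 0.13 relative to WT there, and ΔcIDR at 0.06 ± 0.07. Of 19 tested loci on that side 11 fell in KO on the deposited scale, beside 1.91% of all loci, and 10 after centring, beside 2.13%. The 6 intervals there stood at −1.21 ± 0.33 relative to WT in KO and at 0.16 ± 0.22 in ΔcIDR. Of 3 tested, 2 fell in KO as deposited, beside 10.0% of all intervals, and 0 after centring, beside 7.28%.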

How the data were processed

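Chromatin-associated RNA of E14TG2a cells was profiled in 12 samples, and both deposited tables hold 6 columns. Per the labels' protocols, RNA depleted of ribosomal RNA received a spike-in carrying m6A, was fragmented, and 1 part was kept as input. GRCm39, MACS2, featureCounts, HISAT2, fastp, bedtools, Picard and SAMtools stand in the submitters' processing notes, with no roles or versions. Treatment of multi-mapping reads, strand and pooling of replicates for intervals is not given in the sources used here. The deposited values are a signal, whole reads times 1 factor per library: 100% of values came out whole within 1e-06. Values of 2 reads were commoner than values of 1 in all libraries.

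The log2 of signal was fitted with limma 3.58.1 (R 4.3.3) over all 6 libraries with 1 mean per group, for rows with a mean signal of at least 1 (37759 intervals, pseudocount 0.5) or 20 (433487 repeat loci, pseudocount 10). On recovered reads, edgeR 4.0.16 with TMM factors called 5181 intervals in KO against WT, 73 in ΔcIDR against WT and 9884 in ΔcIDR against KO. DESeq2 1.42.0 was also run. Sums are log2 group means with SE and no test. Named intervals were the 6 with most signal per window, up to 5 per comparison with the smallest adjusted p among calls and the largest log2 difference; repeat loci were the 4 with most signal and up to 3 per comparison. The text gives a selection. Windows, bins and rules were chosen with earlier results of these data known. Replicate numbers did not pair libraries: correlations of deviations were 0.076, −0.29 and −0.15 over intervals. Scripts were tested on simulated data. Limits and p-values cover these libraries only.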

Additional observations from a re-analysis of the deposited data

How the results depend on the processing

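The Meg3 to Mirg sums in KO against WT kept their direction under all alternatives run, as did the KO ratios between windows and between far and near repeat reads. Call counts moved with the scale, whether set by library medians, ERCC reads or repeat reads outside intervals (the repeat-read scale). Leaving out 1 library moved the counts over all rows too. The ERCC scale leaves a shift of its own: the median of all tested rows in ΔcIDR against WT was −0.15 over intervals and −0.26 over repeat loci. The value as reported stands in brackets, sums and ratios are log2 differences, and the cause of other changes was not tested. The Kcnq1ot1 interval calls in KO against WT (1) became 5 after centring, 6 on the ERCC scale, 5 on the repeat-read scale, 7 with edgeR (TMM) and 6 with DESeq2, and ran from 0 to 1 leaving out 1 library. The Kcnq1ot1 interval sum in KO against WT (0.20) was 0.52 after centring, 0.61 on the ERCC scale and 0.51 on the repeat-read scale, and ran from −0.015 to 0.42 leaving out 1 library. The Kcnq1ot1 interval calls in ΔcIDR against WT (0) ran from 0 to 2 leaving out 1 library. The Kcnq1ot1 interval sum in ΔcIDR against WT (0.57) was 0.17 after centring, −0.086 on the ERCC scale, 0.17 on the repeat-read scale and 0.28 without the strongest row. The Kcnq1ot1 interval calls in ΔcIDR against KO (2) became 6 after centring, 7 on the ERCC scale, 6 on the repeat-read scale, 6 with edgeR (TMM) and 6 with DESeq2, and ran from 1 to 3 leaving out 1 library. The Kcnq1ot1 interval sum in ΔcIDR against KO (0.37) was −0.35 after centring, −0.69 on the ERCC scale, −0.34 on the repeat-read scale and −0.11 without the strongest row. Over Meg3 to Mirg, the interval calls in KO against WT (7) became 4 on the ERCC scale and 4 with no filter, and ran from 0 to 9 leaving out 1 library. Summed interval signal over Meg3 to Mirg in KO against WT (−0.86) was −0.55 after centring, −0.46 on the ERCC scale and −0.55 on the repeat-read scale. Over Meg3 to Mirg, the interval calls in ΔcIDR against WT (0) became 2 with DESeq2. Summed interval signal over Meg3 to Mirg in ΔcIDR against WT (0.17) was −0.24 after centring, −0.49 on the ERCC scale, −0.23 on the repeat-read scale and 0.036 without the strongest row. Over Meg3 to Mirg, the interval calls in ΔcIDR against KO (8) became 2 after centring, 1 on the ERCC scale, 3 on the repeat-read scale, 5 with no filter, 1 with edgeR (TMM) and 2 with DESeq2, and ran from 1 to 9 leaving out 1 library. Summed interval signal over Meg3 to Mirg in ΔcIDR against KO (1.03) was 0.31 after centring, −0.029 on the ERCC scale and 0.32 on the repeat-read scale. The Kcnq1ot1 repeat calls in KO against WT (8) became 19 after centring, 37 on the ERCC scale, 31 on the repeat-read scale and 28 with edgeR (TMM), and ran from 1 to 8 leaving out 1 library. The Kcnq1ot1 repeat sum in KO against WT (0.30) was 0.55 after centring, 0.70 on the ERCC scale and 0.61 on the repeat-read scale, and ran from −0.0014 to 0.60 leaving out 1 library. The Kcnq1ot1 repeat calls in ΔcIDR against WT (0) ran from 0 to 9 leaving out 1 library. The Kcnq1ot1 repeat sum in ΔcIDR against WT (0.51) was 0.21 after centring, −0.15 on the ERCC scale, 0.11 on the repeat-read scale and 0.54 over loci outside intervals. The Kcnq1ot1 repeat calls in ΔcIDR against KO (12) became 27 after centring, 50 on the ERCC scale, 31 on the repeat-read scale and 28 with edgeR (TMM), and ran from 6 to 30 leaving out 1 library. The Kcnq1ot1 repeat sum in ΔcIDR against KO (0.21) was −0.34 after centring, −0.85 on the ERCC scale and −0.50 on the repeat-read scale, and ran from −0.094 to 0.51 leaving out 1 library. Over Meg3 to Mirg, the repeat calls in KO against WT (16) became 28 after centring, 28 on the repeat-read scale, 10 with a minimum of 5 and 28 with edgeR (TMM), and ran from 0 to 77 leaving out 1 library. Summed repeat signal over Meg3 to Mirg in KO against WT (−0.85) was −0.45 on the ERCC scale and −0.54 on the repeat-read scale. Over Meg3 to Mirg, the repeat calls in ΔcIDR against WT (0) became 2 after centring, 22 on the ERCC scale, 4 on the repeat-read scale and 3 with edgeR (TMM). Summed repeat signal over Meg3 to Mirg in ΔcIDR against WT (0.099) was −0.20 after centring, −0.56 on the ERCC scale, −0.30 on the repeat-read scale, 0.0055 without the strongest row and −0.0048 over loci outside intervals. Over Meg3 to Mirg, the repeat calls in ΔcIDR against KO (36) became 13 after centring, 23 on the ERCC scale, 13 on the repeat-read scale and 13 with edgeR (TMM), and ran from 4 to 76 leaving out 1 library. Summed repeat signal over Meg3 to Mirg in ΔcIDR against KO (0.95) was 0.40 after centring, −0.11 on the ERCC scale and 0.24 on the repeat-read scale. Far over near repeat reads in KO against WT (0.87) were 1.76 with the bound at 60 kb and 1.04 without LINE-1. The window ratio of interval reads in KO against WT (1.07) was 1.33 without the strongest row. The window ratio of repeat reads in KO against WT (1.15) was 1.21 without the strongest row and 1.05 without LINE-1. Far over near repeat reads in ΔcIDR against WT (−0.44) were −0.60 with the bound at 60 kb. The window ratio of interval reads in ΔcIDR against WT (0.40) was 0.25 without the strongest row. The window ratio of repeat reads in ΔcIDR against WT (0.41) was 0.49 without the strongest row and 0.57 without LINE-1. Far over near repeat reads in ΔcIDR against KO (−1.31) were −2.36 with the bound at 60 kb and −1.52 without LINE-1. The window ratio of interval reads in ΔcIDR against KO (−0.66) was −1.08 without the strongest row. The window ratio of repeat reads in ΔcIDR against KO (−0.74) was −0.48 without LINE-1.

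A fit with the replicate number as a block, although the numbers did not pair the libraries, moved 4 counts on the deposited scale by over 1.5 times. With the block, KO against WT called 3 intervals and 5 repeat loci in the Meg3 to Mirg window and 5 repeat loci in the Kcnq1ot1 window, and ΔcIDR against KO called 5 Meg3 to Mirg intervals. After centring, the block took the KO against WT calls from 5 to 2 over Kcnq1ot1 intervals and from 28 to 17 over Meg3 to Mirg repeat loci, and ΔcIDR against WT from 2 to 0 over the latter. The edgeR fit on the deposited scale, the other pseudocounts and rows overlapping a window's edge changed no count by over 1.5 times. The bounds of 50 and 60 kb, the LINE-1 split and the centred leave-one-out fits were added after seeing the data. Few reads limit the last 10 kb of the Kcnq1ot1 window and its flanks. DESeq2 was not planned for repeat loci.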
